A study of Mus musculus with 10 samples.

Results

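The 300 expressed genes with the longest exonic length were followed across 10 bulk RNA libraries of a mouse cell line. Exonic length is the number of bases that all annotated exons of a gene cover together, as the deposited table gives it. A gene counted as expressed with at least 5 CPM (counts scaled by the library's total to a common depth) in each of 7 libraries: the 3 overexpression libraries, both mutated controls, and sponge replicates 1 and 2. That level was met by 9814 of 55866 listed genes, and the 300 with the largest exonic length were taken, which leaves 9514 other expressed genes. The genes were thus chosen by their exonic length and by a minimum level in those 7 libraries, and that minimum itself is no result.

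All libraries came from iKCs, the label of the cell line, which the labels do not spell out. The cells carried vectors that the design text calls LV and were sorted on viability and on the vectors' fluorescent marker mOrange. Overexpression of miR-342-3p had 3 libraries and its control with a mutated miR-342-3p had 2. The sponge against miR-342-3p had 3 libraries and its control, a scramble sponge, had 2. A sponge is a transcript whose binding sites sequester a microRNA. The titles call the libraries biological replicates of 1 line, with no word on whether they come from separate cultures. The p-values thus take the spread among libraries, which may be technical, as their error.

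Total counts ran from 25713110 to 59260772 per library, and the libraries with the lowest and the highest total were both overexpression libraries (replicates 3 and 1). Mir342, the hairpin gene, had 8.22, 11.3 and 9.41 CPM with overexpression, against 2.86 and 3.22 CPM in the mutated control. It had 0 counts in all sponge and scramble libraries, and 3 counts in the shallowest of these would be 0.0886 CPM. Of 16 macrophage and Kupffer cell markers 13 were tested, with a summed level of 5117 to 6097 CPM. Much of it was Csf1r (1779 to 2325 CPM), Cd68 (883 to 1094 CPM) and Lyz2 (744 to 1230 CPM). The Kupffer cell genes Clec4f and Timd4 were at 0 in all libraries, and Vsig4 had at most 0.0933 CPM. Cd5l (1.35 to 2.83 CPM), Nr1h3 (1.73 to 2.66 CPM), Marco (2.59 to 4.22 CPM) and Id3 (3.54 to 6.49 CPM) were low. The other genes of the list had at least 92.9 CPM. Hepatocyte markers summed to 382 to 514 CPM, nearly all of it Trf (334 to 466 CPM) and Ass1, and Ttr, Cyp3a11 and Serpina1c were at 0. Endothelial markers summed to 28.4 to 41.1 CPM, and stellate cell, lymphocyte, neutrophil and erythroid markers to at most 2.36 CPM each.

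Some genes with very long exonic sequence code for giant proteins, such as the linkers that tie cytoskeletal filaments together, large ubiquitin ligases and chromatin enzymes. Others carry very long 3′ UTRs, the stretch after the coding region in which microRNAs bind. Exonic length also grows where the exons of several annotated transcripts differ. A few are long RNAs that code for no protein. In a library of polyadenylated RNA a long gene gives more fragments than a short gene with as many molecules, so genes are ranked by level per kilobase of exonic length. In bulk samples, fewer cells of a type and less RNA per cell cannot be told apart.

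The exonic length of the 300 genes ran from 14783 to 123179 bases with a median of 17395.5, against a median of 4531.5 bases in the other expressed genes. Itpr2 (14802 bases), Mdm4 (14798) and Sbf2 (14783) lay just inside the limit, and Kmt5b (14752), Tut7 (14732) and Rb1cc1 (14690) just outside. In GENCODE vM21, 298 of the 300 were found, and 292 of them are protein-coding. Their median longest single transcript was 9573 bases, against 3391 bases in the other expressed genes. That transcript made up a median of 53.7% of the exonic length, against 77.9% in the other expressed genes, and for 125 genes it was under 50% of it. The median number of annotated transcripts was 11, against 5 in the other expressed genes. The median coding region was 4348.5 bases against 1377, the median 3′ UTR 3354 bases against 1183, and the median GC content of the longest transcript 45.1% against 49.4%. The genes lay on 20 chromosomes, with 38 of them (12.7%) on chromosome 1, where 5.78% of expressed genes lie.

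Long 3′ UTRs hold more microRNA sites by their size. The mature sequence of miR-342-3p and its matches are shown because the vectors raise or sequester this microRNA. The first line is the mature microRNA from RefSeq (GRCm38.p6, chr12:108658680-108658702, plus strand), with the seed, bases 2 to 8, in capitals. The other lines are 8mer sites in 3′ UTRs read 5′ to 3′ from the GENCODE vM21 transcripts (GRCm38), with the match to the seed and its flanking A in capitals. They belong to the 5 genes with such a site that had the smallest p in overexpression against the mutated control.
mmu-miR-342-3p: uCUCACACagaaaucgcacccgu
Galc (chr12:98203393-98203400, minus strand): ttggagttGTGTGAGA
Stxbp5 (chr10:9759409-9759416, minus strand): cctgctctGTGTGAGA
Naa15 (chr3:51476187-51476194, plus strand): ggtgctgaGTGTGAGA
Macir, site 1 (chr1:97638134-97638141, minus strand): acacttttGTGTGAGA
Macir, site 2 (chr1:97613504-97613511, minus strand): ttggttgtGTGTGAGA
Macir, site 3 (chr1:97610721-97610728, minus strand): atcagaagGTGTGAGA
Tnrc6b (chr15:80930692-80930699, plus strand): ctcgtcggGTGTGAGA

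Of the 292 genes with a 3′ UTR, 101 (34.6%) held an 8mer or a 7mer-m8 site, the 7 bases opposite the seed, against 15.5% of the other expressed genes. An 8mer stood in 43 of them (14.7%), against 4.49% of the others. Per 10 kb of UTR the sites were close in number, at 1.2 in the long genes and 1.18 in the others, and 8mers alone stood at 0.381 and 0.303.

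Per kilobase, the 300 genes were mostly moderate in level. Their median was 5.12 CPM per kilobase, against 11.2 in the other expressed genes, averaged over the 10 libraries. The genes were chosen by the same exonic length that divides this value, so a lower median is partly built into the choice. Before the division their median was 92.7 CPM, against 50.4 CPM in the other expressed genes. The highest was Rnf213, a giant ubiquitin ligase induced by interferon, at 117 ± 21.7 CPM per kilobase (SD over 10 libraries). Xist, the RNA that silences an X chromosome, followed at 77.2 ± 17.6, and then Iqgap1, an actin scaffold, at 62.6 ± 5.32 and the dynein heavy chain Dync1h1 at 62.4 ± 7.27. The splicing regulator Mbnl1 had 53.7 ± 4.14, the endocytic receptor Lrp1 42.8 ± 6.01 and the scaffold Ahnak 37.8 ± 7.03 CPM per kilobase. The splicing cofactor Son (33.8 ± 3.00), the leukocyte phosphatase Ptprc, known as CD45 (32.7 ± 2.73), and the plasma membrane calcium pump Atp2b1 (29.3 ± 3.98) completed the highest 10. Iqgap1 and Dync1h1 differed by less than their spread, as did Son and Ptprc.

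The 10 longest genes spanned levels from low to moderate. Nopchap1 led by exonic length (123179 bases, chromosome 10) at 0.41 ± 0.019 CPM per kilobase, and Kcnq1ot1, a noncoding RNA that silences imprinted neighbours, followed with 93092 bases at 0.10 ± 0.020. The cytoskeletal linkers Dst (41619 bases, 4.42 ± 0.711), Syne1 (40491 bases, 2.77 ± 0.392) and Macf1 (32385 bases, 12.3 ± 2.50) were among them. So were Macir (41324 bases, 3.40 ± 0.180), named as a regulator of macrophage immunometabolism, the ankyrin-repeat gene Ankrd17 (35542 bases), the membrane adaptor Ank2 (35510 bases), the bromodomain gene Phip (33312 bases) and the kinase Mast4 (32401 bases). Nopchap1 has no entry in the annotation used for transcripts. Strand was not used in counting, so reads of Kcnq1ot1 and of Kcnq1, which overlaps it on the other strand, cannot be told apart, and the same holds for Xist and its antisense RNA Tsix.

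The long genes were lowest in 1 overexpression and 1 sponge library. They held 3.36%, 4.34% and 4.69% of all counts with overexpression, 4.72% and 4.68% in the mutated control, 4.67%, 4.64% and 3.73% with the sponge, and 4.20% and 4.56% with the scramble sponge. Overexpression replicate 1 and sponge replicate 3 stood below the other 8 libraries, which lay between 4.20% and 4.72%. The group means were 4.13 ± 0.688% with overexpression (SD, n = 3), 4.70 ± 0.030% in the mutated control (n = 2), 4.35 ± 0.535% with the sponge (n = 3) and 4.38 ± 0.250% with scramble (n = 2). The highest and the lowest group mean lay closer together than the highest and the lowest library did within overexpression, and within the sponge.

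Gene by gene the picture was the same. On log2 CPM minus each gene's mean over all libraries, the long genes had a median of −0.36 in overexpression replicate 1, −0.01 in replicate 2 and 0.10 in replicate 3. The mutated control libraries were at 0.11 and 0.11. The sponge libraries were at 0.11, 0.10 and −0.20 and the scramble libraries at −0.02 and 0.06. In overexpression replicate 1 and in sponge replicate 3, 281 of the 300 genes lay below their own mean, against 32 and 34 genes in the mutated controls. Each mean includes these low libraries, which raises the other libraries relative to it. The other expressed genes had medians between −0.02 and 0.03 in the 10 libraries.

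**Figure D1:**
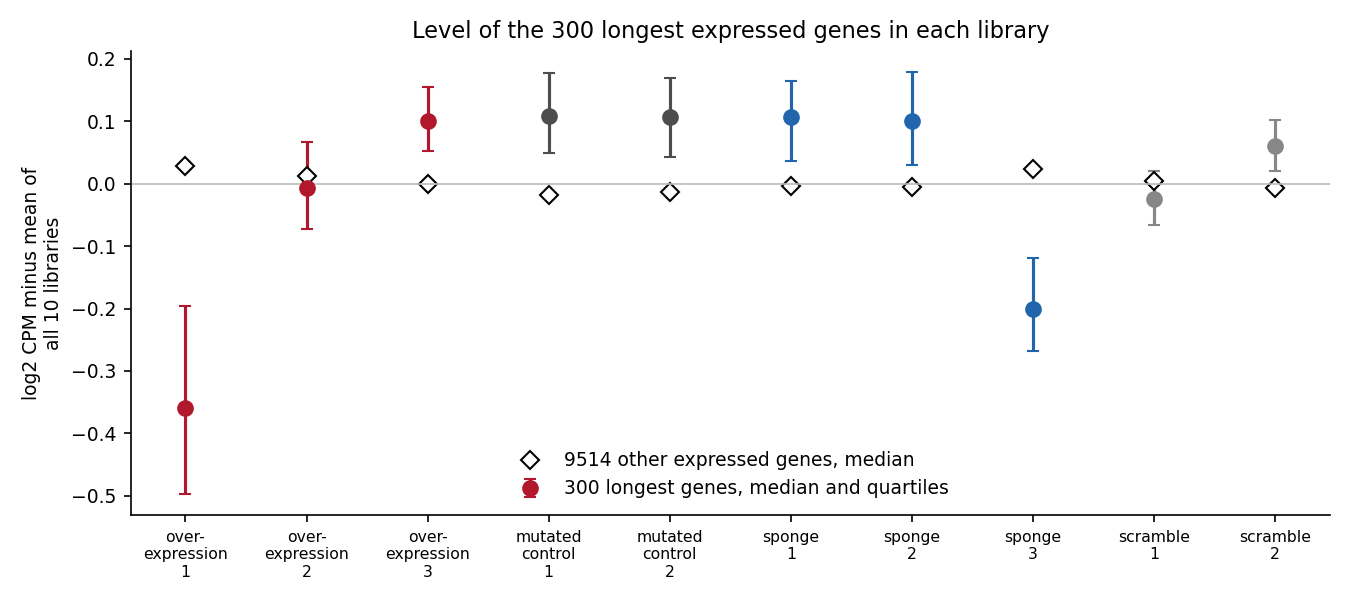
Median log2 CPM of the 300 longest genes minus their mean over all 10 libraries (filled points, with quartiles) and of the 9514 other expressed genes (open diamonds), by library. The long genes lie at −0.36 in overexpression replicate 1 and −0.20 in sponge replicate 3, and between −0.02 and 0.11 in the other 8 libraries.

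Single genes followed the same order of libraries. Of the 300 genes 234 (78.0%) had their lowest level in overexpression replicate 1, against 24.4% of the other expressed genes. Those 2 libraries held the 2 lowest values of 219 long genes (73.0%), against 15.2% of the others. Over the 300 genes the deviations in the 2 libraries correlated with a Spearman's rho of 0.70, given as a description of genes that share 2 libraries, and over the other expressed genes with 0.67.

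Length ordered all expressed genes in these libraries, not the longest 300 alone. Across the 9814 expressed genes, exonic length and the deviation had a Spearman's rho of −0.60 in overexpression replicate 1 and −0.61 in sponge replicate 3, and between −0.12 and 0.44 in the other 8 libraries. Positive values can follow in part from the gene means, which include the low libraries. From the shortest to the longest of 10 equal bins, the median deviation ran from 0.22 to −0.23 in overexpression replicate 1 and from 0.15 to −0.13 in sponge replicate 3. The order by length held at each of 3 levels of GC content of the longest transcript. In overexpression replicate 1 the medians of the shortest and the longest of 3 length classes were 0.09 and −0.16 at low GC, 0.14 and −0.14 at middle GC, and 0.18 and −0.10 at high GC.

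**Figure D2:**
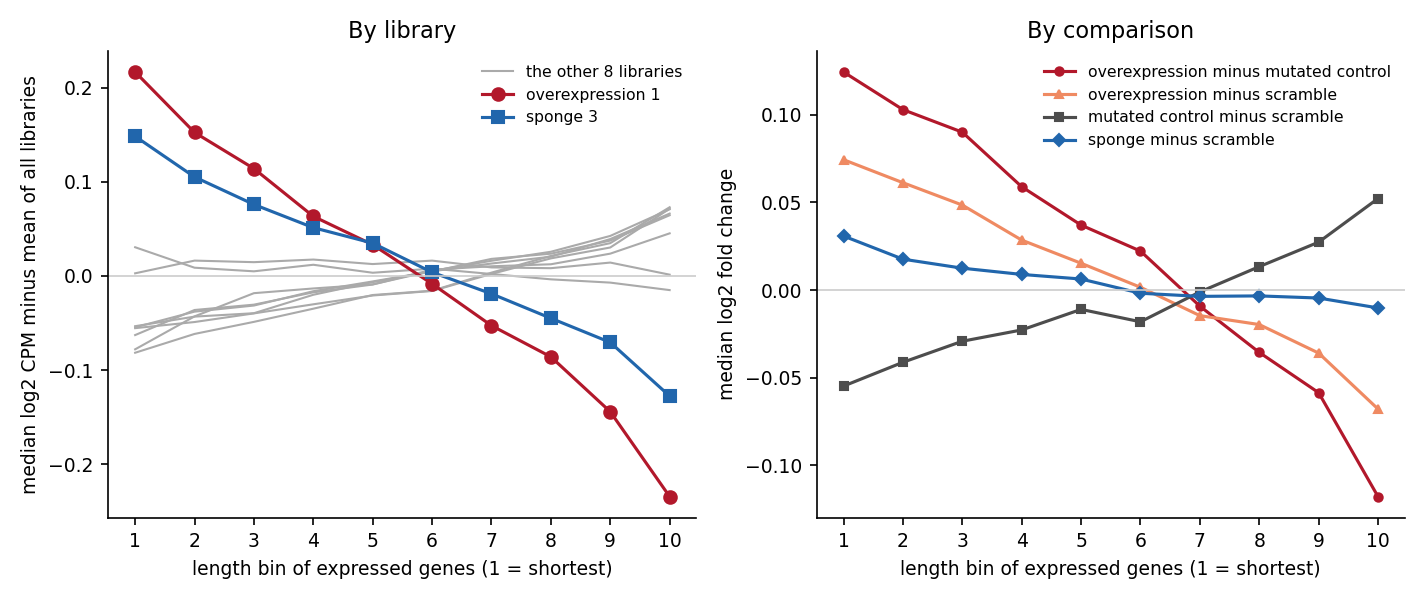
Median deviation by library (left) and median log2 fold change by comparison (right) for 10 equal bins of the 9814 expressed genes by exonic length. Overexpression replicate 1 slopes from 0.22 to −0.23 and the comparison of overexpression with the mutated control from 0.12 to −0.12.

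Other measures of these libraries moved with the long genes. The 85 ribosomal protein genes, which are short, took 2.50% of counts in overexpression replicate 1 and 2.42% in sponge replicate 3, against 1.93% to 2.28% in the other 8. The nuclear RNA Malat1 had 323 and 315 CPM in those 2 libraries, against 423 to 741 CPM in the others. Mitochondrial genes took 1.27% and 1.43%, within or next to the range of the others (1.28% to 1.48%). Overexpression replicate 1 had the highest total count, and sponge replicate 3 had 43089643 counts. The part of depth, RNA quality or library preparation in the pattern was not tested.

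Within the 300 genes the level in these 2 libraries was also set against the length of a single transcript. The genes were selected on exonic length, which narrows its range, so the values for exonic length cannot be set against those for the other lengths. In overexpression replicate 1, Spearman's rho over the genes was −0.50 with the longest transcript (n = 298), −0.52 with the coding region (n = 292), −0.15 with exonic length and 0.08 with the 3′ UTR. In sponge replicate 3 it was −0.43, −0.34, −0.12 and −0.03 for the same 4 lengths. The 135 genes with a transcript over 10 kb had a median deviation of −0.48 in overexpression replicate 1 and −0.24 in sponge replicate 3. The 151 genes of 5 to 10 kb had −0.27 and −0.17, and the 12 under 5 kb had −0.15 and −0.08. These values describe genes of the same libraries and carry no test.

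**Figure D3:**
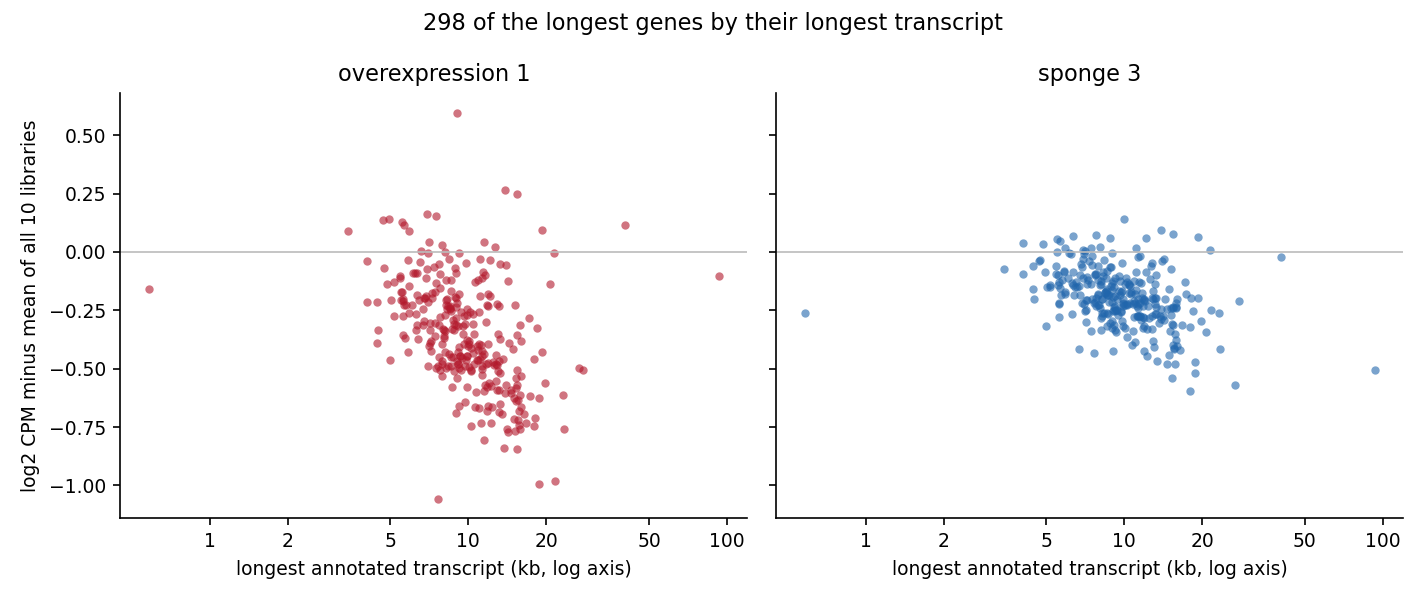
Deviation (log2 CPM minus the mean of all 10 libraries) of 298 long genes against their longest annotated transcript in kilobases on a log axis, in overexpression replicate 1 (left) and sponge replicate 3 (right). Genes with transcripts over 10 kb lie lower, at a median of −0.48 on the left and −0.24 on the right.

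The extremes show both ends of that range and were chosen after their values were seen. Nr2c2, a nuclear receptor gene, was lowest in overexpression replicate 1 at −1.06 and stood at −0.43 in sponge replicate 3. The nuclear envelope linker Syne2 stood at −0.98 and −0.25, and Vps13b, a bridge-like lipid transfer protein, at −0.84 and −0.28. Examples of genes that stood high in overexpression replicate 1 are Tacc2 at 0.60, BC004004 at 0.27, Serbp1 at 0.25, Mtdh at 0.16 and Naa15 at 0.16. Arhgef7 and Rbm25 stood at 0.14, Camk2d at 0.13 and Macir at 0.12. Tacc2 and Naa15 were high in all overexpression libraries, so their values are not particular to this library. Without this library Macir still had a log2 fold change of 0.16 against the mutated control. Arhgef7 had 0.21 without this library and sponge replicate 3. The other genes named here were not sorted in this way. Serbp1, an mRNA-binding protein, and Macir have short coding regions (1221 and 621 bases) in long transcripts.

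With miR-342-3p overexpressed, set against the mutated control to ask what the microRNA changes, 263 of the 300 long genes had a log2 fold change below 0. Their median was −0.19, against 0.03 in the other expressed genes and −0.01 in all 15767 genes tested. The co-chaperone gene Dnajb14 fell, and it was the sole long gene past an edgeR adjusted p of 0.05, where 0.539% of all tested genes passed (0.292% lower and 0.247% higher). At an unadjusted p under 0.05 stood 45 long genes (15%), 41 of them lower, against 18.2% of all tested genes. The standard error was larger for the long genes, at a median of 0.131 on the log2 scale against 0.085 in the other expressed genes. Overexpression lay below both mutated controls without overlap in 117 long genes (39.0%), where 19.3% of all tested genes did, and above them in 12 (4.0%), where 18.9% did.

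The median depended on overexpression replicate 1. Without that library it was −0.07 with 211 genes below 0, and without sponge replicate 3 as well, an alternative chosen after seeing the data, it was −0.06. A per-library offset that removes the trend of level on length left a median of −0.02. For genes chosen by length a median near 0 follows from that offset, so the value is no separate evidence. Without overexpression replicate 3 the median was −0.27.

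Dnajb14, a membrane-anchored partner of Hsp70 in the endoplasmic reticulum, had 40.9, 44.7 and 51.2 CPM with overexpression, against 73.3 and 75.4 CPM in the mutated control. It had 58.4, 66.8 and 46.5 CPM with the sponge and 56.2 and 57.9 CPM with scramble. The overexpression libraries lay below both controls without overlap, and the mutated control lay above all other libraries. Against the mutated control Dnajb14 was 1.63-fold lower (log2 fold change −0.71, SE 0.13, edgeR adjusted p = 0.0489), and against scramble its log2 fold change was −0.33 (SE 0.13, adjusted p = 0.333). The call was lost in 9 of 20 other settings, with adjusted p-values up to 0.399. These were both fits with a replicate block and 7 of the 10 fits without 1 library (without overexpression replicate 1 or 2, sponge replicate 1, either mutated control or either scramble library). The deposited positions of Dnajb14 are 137573436 to 137622318 of chromosome 3, plus strand.

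The noncoding RNA Neat1, which builds nuclear paraspeckles, had 201, 176 and 193 CPM with overexpression, against 331 and 304 CPM in the mutated control. With the sponge it had 162, 265 and 174 CPM, and with scramble 222 and 243 CPM. Overexpression lay below both control groups. Sponge replicates 1 and 3 lay below the lowest overexpression library and replicate 2 between the 2 control groups. Against the mutated control the log2 fold change of Neat1 was −0.74 (SE 0.17, edgeR adjusted p = 0.081).

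The genes with the next smallest p were likewise short of the threshold by edgeR. DESeq2 called 7 long genes in this comparison, all lower (Dnajb14, Neat1, Galc, Tmcc1, Atp2b1, Stxbp5 and Asph), which is 2.33% of the long genes, where it called 3.9% of tested genes. Galc, a lysosomal galactosylceramidase with an 8mer site, had 102, 101 and 128 CPM with overexpression, against 144 and 153 CPM in the mutated control. Its sponge libraries had 146, 160 and 128 CPM and its scramble libraries 148 and 140 CPM. All overexpression libraries lay below all others, though replicate 3 (127.7 CPM) and sponge replicate 3 (128.1 CPM) were nearly level, and the log2 fold change of Galc was −0.43 (SE 0.11, edgeR adjusted p = 0.113) against the mutated control. Tmcc1, a membrane protein of the endoplasmic reticulum, had 35.0, 33.1 and 32.7 CPM with overexpression, against 39.5 and 41.5 CPM in the mutated control. Its sponge (36.2, 36.8 and 33.8 CPM) and scramble libraries (35.9 and 34.9 CPM) stood near the overexpression libraries. The log2 fold change of Tmcc1 against the mutated control was −0.27 (SE 0.07, edgeR adjusted p = 0.098), and that of Atp2b1 −0.42 (SE 0.11, adjusted p = 0.113).

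Higher values were rarer. Tacc2, a centrosomal coiled-coil protein, had 11, 11.1 and 8.64 CPM with overexpression, against 7.52 and 7.55 CPM in the mutated control. It had 5.51, 5.12 and 6.65 CPM with the sponge and 5.74 and 6.32 CPM with scramble. All overexpression libraries lay above all others, with a log2 fold change of 0.46 (SE 0.13, edgeR adjusted p = 0.14) against the mutated control and 0.77 (SE 0.14, adjusted p = 0.095) against scramble. Naa15, a subunit of an N-terminal acetyltransferase with an 8mer site, had 149, 154 and 142 CPM with overexpression, against 124 and 131 CPM in the mutated control. Its sponge libraries had 129, 119 and 128 CPM and its scramble libraries 128 and 133 CPM, so overexpression lay above all other libraries for Naa15 too (log2 fold change 0.21, SE 0.06, edgeR adjusted p = 0.142). Macir, with 3 of the sites shown above, had a log2 fold change of 0.18 (SE 0.06, edgeR adjusted p = 0.169).

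**Figure D4:**
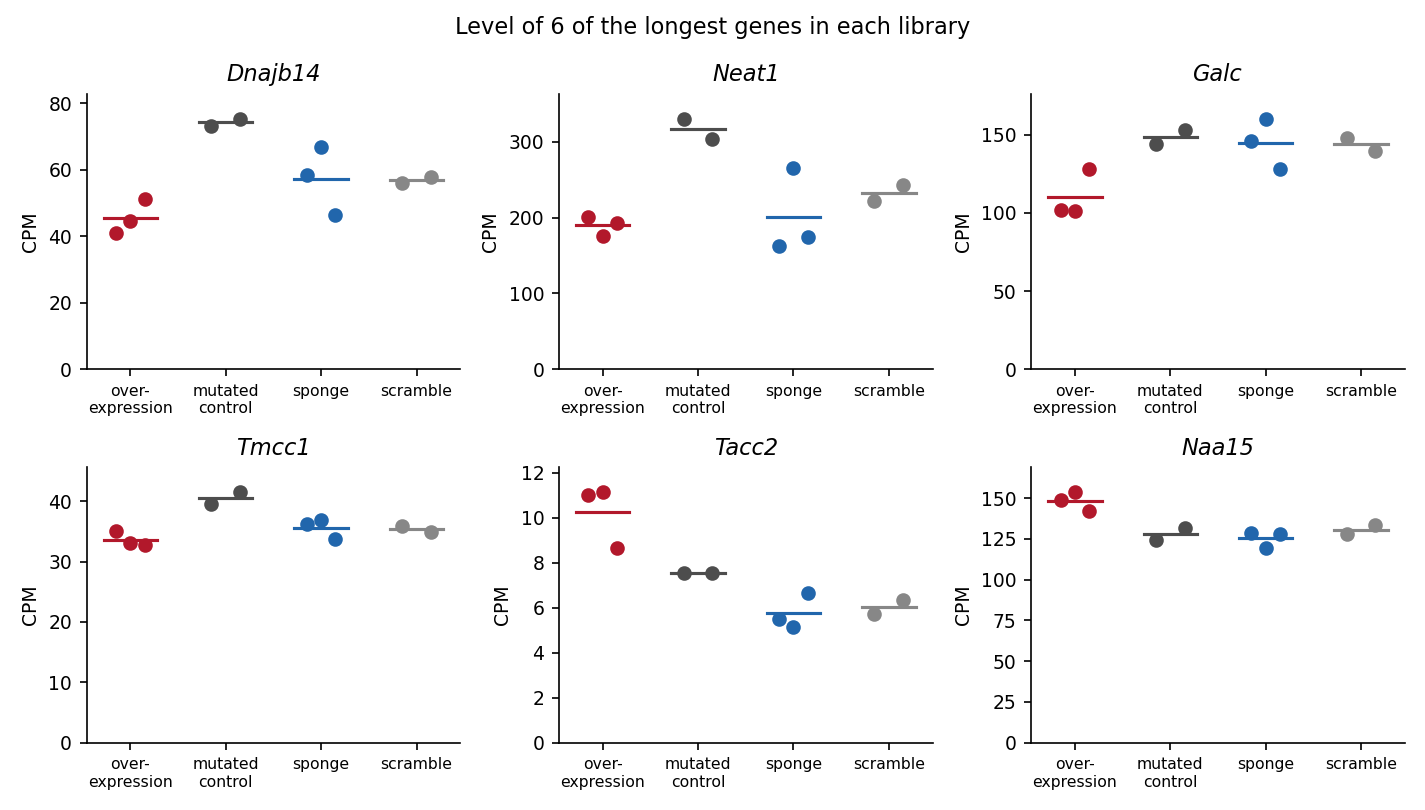
CPM of Dnajb14, Neat1, Galc, Tmcc1, Tacc2 and Naa15 in each library (points) with the group mean (line), on axes that start at 0. Tacc2 and Naa15 are highest in the 3 overexpression libraries, while Dnajb14, Neat1 and Tmcc1 are highest in the 2 mutated controls.

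Long genes with and without a miR-342-3p site had close medians. In overexpression against the mutated control the median log2 fold change was −0.21 in the 101 genes with a site (87 below 0), −0.22 in the 43 with an 8mer (36 below 0) and −0.18 in the 191 with a UTR and no site (168 below 0). Dnajb14, the called gene, has no such site. Against scramble the medians were −0.09, −0.11 and −0.10 for the same 3 sets. In sponge against scramble they were −0.0044, −0.0091 and −0.0017. Of the genes whose sites are printed above, Galc, Stxbp5 (−0.31, SE 0.09) and Tnrc6b (−0.49, SE 0.16) had negative values against the mutated control and Naa15 and Macir positive ones, and the adjusted p was over 0.05 for each by edgeR.

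By role, the long genes lay to the same side in nearly all lists, and no list but the unlisted remainder held a called gene. The lists were chosen with earlier results of these data known and hold 103 of the 300 genes, with Atrx in 2 lists. All 28 chromatin and transcription regulators had a log2 fold change below 0 in overexpression against the mutated control, with a median of −0.27 and 0 called. Examples are the DNA demethylase Tet3 (−0.41, SE 0.15) and the transcription factor Zfhx3 (−0.22, SE 0.10). All 13 ubiquitin ligases and deubiquitinases also lay below 0, with a median of −0.28 and 0 called, among them Herc1 (−0.40, SE 0.22) and Rnf213 (−0.24, SE 0.23). For comparison, 87.7% of all 300 long genes and 42.8% of the other expressed genes lay below 0.

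The 21 cytoskeletal linkers, motors and scaffolds had a median of −0.14, with 19 below 0 and 0 called. Myo5a, an organelle motor, stood at −0.41 (SE 0.14), the adhesion protein Lpp at −0.42 (SE 0.15) and the linkers Macf1 at −0.35 (SE 0.25), Dst at −0.23 (SE 0.20) and Syne1 at −0.05 (SE 0.18). In overexpression replicate 1 this list had a median deviation of −0.48, next to −0.48 in the chromatin list and −0.60 in the ubiquitin list. Of 15 genes of lipid transport, endocytosis and membrane traffic 14 were below 0, with a median of −0.22, such as the Rab activators Dennd1b (−0.31, SE 0.13) and Dennd4a (−0.23, SE 0.12). The 6 kinases of the phosphatidylinositol 3-kinase-like family, lipid kinases and genome maintenance genes had a median of −0.27 with all below 0, and hold the lipid kinase Pikfyve (−0.36, SE 0.13) and the chromatin remodeller Atrx (−0.45, SE 0.23).

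The 12 genes of RNA processing, decay and translation stood on both sides, with 9 below 0, 3 above 0 and a median of −0.15. The lowest were Tnrc6b and Ago3 (−0.47, SE 0.22), both components of the microRNA silencing complex, while Mbnl1 stood at −0.04 (SE 0.11) and Son at −0.17 (SE 0.11). The 3 noncoding RNAs of the list were Neat1, Xist (−0.45, SE 0.27) and Kcnq1ot1 (−0.41, SE 0.16). The macrophage receptors among the long genes were Ptprc (−0.05, SE 0.10) and the BMP receptor Bmpr2 (−0.33, SE 0.18). Of 4 solute carriers 3 were below 0, with Slc38a1 at −0.09 (SE 0.08) and Slc38a9 at −0.09 (SE 0.09), both amino acid transporters. The 197 genes in no list had a median of −0.17 with 167 below 0.

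**Figure D5:**
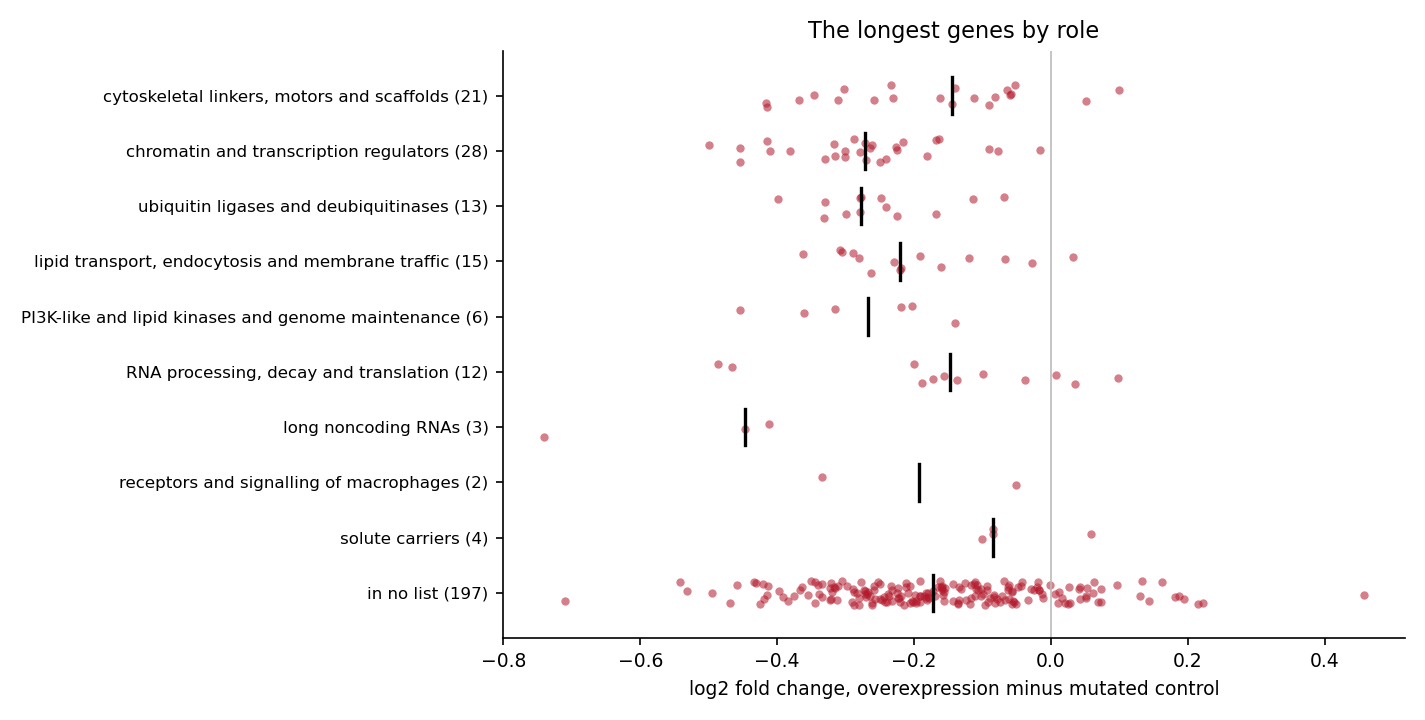
Log2 fold change of overexpression minus the mutated control for each of the 300 long genes (points) by role, with the number of genes in brackets and the median as a black line. All 28 chromatin and all 13 ubiquitin genes lie below 0, and the 12 RNA processing genes spread over 0.

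Further named genes had these values in the same comparison. The log2 fold change was −0.12 for Lrp1 (SE 0.16), −0.14 for Ahnak (SE 0.22), −0.06 for Iqgap1 (SE 0.12), −0.06 for Dync1h1 (SE 0.15) and −0.0012 for Nopchap1 (SE 0.071). It was −0.16 for Ankrd17 (SE 0.15), −0.03 for Ank2 (SE 0.14), −0.35 for Phip (SE 0.21), −0.07 for Itpr2 (SE 0.12), −0.23 for Mdm4 (SE 0.13) and −0.18 for Sbf2 (SE 0.12). Mast4 stood at −0.42 (SE 0.13, edgeR adjusted p = 0.157).

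Against the scramble sponge the overexpression libraries showed a smaller median of −0.09, with 240 of the 300 genes below 0 and 0.01 in the other expressed genes. This comparison shares its overexpression libraries with the one above. By edgeR 0 long genes passed the adjusted threshold, where 0.0444% of tested genes did, with 19 (6.33%) at an unadjusted p under 0.05 (11 lower and 8 higher), against 13.4% of tested genes. DESeq2 called 2 long genes, Arhgef7 and Tacc2, where it called 1.8% of tested genes. Without overlap, 35 long genes (11.7%) lay lower, where 15.9% of tested genes did, and 12 (4.0%) higher, where 15.1% did. Without overexpression replicate 1 the median turned to 0.03 with 119 genes below 0. The smallest p-values after Tacc2 belonged to Arhgef7, an exchange factor for Rac and Cdc42 (log2 fold change 0.25, SE 0.06, edgeR adjusted p = 0.184), and to the histone deacetylase Hdac9 (0.37, SE 0.10, adjusted p = 0.216).

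The 2 control groups were compared with each other, since each serves as a control above. In the mutated control against scramble 253 of the 300 long genes had a log2 fold change above 0, with a median of 0.09 against −0.01 in the other expressed genes. Without overlap, 171 long genes (57.0%) lay higher, where 24.1% of tested genes did, and 16 (5.3%) lower, where 24.2% did. DESeq2 called 0 long genes, where it called 0.661% of tested genes. By edgeR 0 long genes passed the adjusted threshold, where 0.0254% of tested genes did, with 8 (2.67%) at an unadjusted p under 0.05, against 6.47% of tested genes. Fitted on these 4 libraries alone, 30 long genes (10%) passed, 29 of them higher, where 3.79% of tested genes passed (1.85% lower and 1.93% higher). The median was 0.04 without scramble replicate 1 and 0.14 without scramble replicate 2.

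Asph, an aspartyl hydroxylase of the endoplasmic reticulum, had 84.4, 104 and 116 CPM with overexpression, 130 and 148 CPM in the mutated control, 100, 103 and 78.5 CPM with the sponge and 97.2 and 104 CPM with scramble. The mutated control lay above all other libraries, and overexpression overlapped scramble. Its log2 fold change was −0.46 (SE 0.14, edgeR adjusted p = 0.144) for overexpression against the mutated control, 0.01 (SE 0.14) against scramble, and 0.47 (SE 0.15, adjusted p = 0.549) for the mutated control against scramble. The transcription regulator Fubp1 had 0.30 (SE 0.08, adjusted p = 0.367) and the nuclear protein gene Emsy −0.22 (SE 0.08, adjusted p = 0.616) for the mutated control against scramble.

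The sponge against its scramble control, which asked what sequestering the microRNA changes, gave a median of −0.0040 for the long genes, with 160 below 0 and 140 above. DESeq2 called 0 long genes, where it called 0.00634% of tested genes. By edgeR 0 long genes passed the adjusted threshold, where 0% of tested genes did, with 1 (0.333%) at an unadjusted p under 0.05, against 2.33% of tested genes. Without overlap, 5 long genes (1.7%) lay lower, where 8.3% of tested genes did, and 4 (1.3%) higher, where 6.9% did. Without sponge replicate 3 the median was 0.08 with 50 genes below 0, and it was −0.05 without sponge replicate 1 and without sponge replicate 2. The smallest p-values belonged to the focal adhesion protein Tns1 (log2 fold change 0.26, SE 0.10), the histone deacetylase Hdac4 (−0.17, SE 0.09) and the clathrin adaptor Picalm (−0.16, SE 0.09), each with an edgeR adjusted p of 1.

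The difference of the 2 vector effects, overexpression against the mutated control minus sponge against scramble, had a median of −0.18, with 256 genes below 0. DESeq2 called 0 long genes, where it called 0.378% of tested genes. By edgeR 0 long genes passed the adjusted threshold, where 0% of tested genes did, with 13 (4.33%) at an unadjusted p under 0.05, against 8.06% of tested genes. Without overexpression replicate 1 the median was −0.06 and without sponge replicate 3 it was −0.28. The smallest p-values belonged to Dnajb14 (difference −0.71, SE 0.19, edgeR adjusted p = 0.406), Naa15 (0.27, SE 0.09, adjusted p = 0.504) and Tmcc1 (−0.27, SE 0.09, adjusted p = 0.514).

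With overexpression replicate 1 and sponge replicate 3 left out, the fit called more long genes and more genes overall. This fit was chosen after seeing the data and has 2 libraries in each group. It leaves out the libraries in which the long genes lay lowest, which narrows the spread that its SE and p-values rest on. The p-values of this fit are thus a description. For overexpression against the mutated control it called 21 long genes (7.0%) by edgeR, where 4.83% of tested genes were called. Of the long genes 16 were lower and 5 higher, where 2.26% of tested genes were called lower and 2.57% higher. Dnajb14 stood at −0.63 (SE 0.07, adjusted p = 0.000226), Atp2b1 at −0.33 (SE 0.06, adjusted p = 0.0073), and Tnrc6b, a scaffold that Argonaute proteins recruit to silence messenger RNAs, at −0.34 (SE 0.07, adjusted p = 0.00901). Also lower were Asph, Tmcc1, Lpp, Myo5a, Stxbp5, Pikfyve, Creb5, Tet3, Tia1, Zfp704, Gm33989, Nktr and Tet2, at −0.34 to −0.22. The 5 higher genes were Naa15 (0.22), the bicarbonate transporter Slc4a7 (0.23), Arhgef7 (0.21), Hdac9 (0.31) and Myo18a (0.18). Slc4a7 had a log2 fold change of 0.06 (adjusted p = 0.862) with all libraries.

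In that fit the comparison with scramble called 9 long genes (3.0%), where 2.4% of tested genes were called (1.26% lower and 1.14% higher). All 9 were higher, led by Tacc2 (log2 fold change 0.73, SE 0.12, edgeR adjusted p = 0.00712) and Hdac9 (0.45, SE 0.08, adjusted p = 0.0157). Hdac9, Arhgef7 and no other gene were called higher against both controls, which share the overexpression libraries. Of the 16 genes called lower against the mutated control, 5 were called higher in the mutated control than in scramble: Asph, Myo5a, Dnajb14, Lpp and Pikfyve. Both comparisons use the same mutated control libraries, so these calls are not independent. The mutated control against scramble called 11 long genes, where 1.73% of tested genes were called (0.972% lower and 0.761% higher). None of the 16 was called against scramble.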

How the data were processed

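The members and the gene lists were chosen with earlier results of these data known. The deposited values are raw, whole-number read counts by gene. Read pairs were counted by the authors with featureCounts 2.0.1 against GENCODE vM30 without strand, per the file headers, and the header command names 12 libraries, of which 10 are analysed here. The submitters' processing notes name STAR 2.7.6a, Subread, Trimmomatic, FastQC 0.11.6 and the build GRCm38. vM30 belongs to a later build, so gene positions are given as deposited, without a build.

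The deposited lines have 15 fields under 16 header names: sponge replicate 3 and a scramble library have their counts joined. Each was split at the likeliest place under a negative binomial distribution (dispersion 0.1), and 51 genes with a likelihood ratio under 100, 0 of them members, were left out. Of intact pairs joined on purpose, at least 99.8998% of genes were recovered. The group of the 2 scramble libraries is certain and their replicate numbers are not.

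All 10 libraries entered 1 edgeR 4.0.16 fit (robust quasi-likelihood test, TMM factors, expression filter by group, 6 residual degrees of freedom, R 4.3.3). P-values were adjusted by Benjamini-Hochberg over 15767 genes (threshold 0.05), and each SE was obtained from the log2 fold change and the square root of F. Groups without overlap were read from CPM with TMM factors. The deviation is log2 CPM (prior count 2) minus the gene's mean over the libraries. The fit was tested on simulated data. Named genes were the 10 longest, the 10 highest per kilobase, called genes or the 3 smallest p per comparison, 2 per role list and those at the limit of length. Others were chosen after their values were seen, and 1 gene under this rule is not reported here. Transcripts, UTRs and GC content came from GENCODE vM21 (GRCm38), 295 genes by symbol and 3 by synonym. Alternatives were DESeq2 1.42.0, limma-voom (limma 3.58.1), other size factors, filters, libraries, a length offset and a replicate block. Deviations of same-numbered libraries from their group means had correlations from −0.41 to 0.16. These values cannot show whether such libraries share a culture or a batch. The fit reported does not use the numbers to pair libraries.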

Additional observations from a re-analysis of the deposited data

How the results depend on the processing

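The median log2 fold changes of the long genes moved by no more than the pooled SD of the library medians (0.174), which includes the 2 low libraries. The length offset moved the median against the mutated control from −0.19 to −0.02, which follows from how the offset is built. Without overexpression replicate 1 the median against scramble turned from −0.09 to 0.03. The number of long genes called for overexpression against the mutated control was 1 (0.333%) with all libraries, where 0.539% of tested genes were called. It was 7 (2.33%) with DESeq2, where 3.9% of tested genes were called, and 2 (0.667%) with the compared groups alone, where 0.222% were. With the length offset it was 4 (1.33%), where 1.92% of tested genes were called. With no expression filter it was 89 (29.7%), 88 of them lower, where 4.67% of tested genes were called. In the fit reported it was 0 in the 200 longest and 2 in the 500 longest genes, against 0.539% of tested genes. When 1 overexpression or sponge library was left out it was 0 to 4 of the 300, where 0.0381% to 1.78% of tested genes were called. With the replicate block it was 0, and with a block by the number in the description 0, where 0% of tested genes were called in both. Without overexpression replicate 1 and sponge replicate 3, chosen after seeing the data, it was 21 (7%), where 4.83% of tested genes were called. Against scramble (0 with all libraries) the count was 2 (0.667%) with DESeq2, where 1.8% of tested genes were called, and 18 (6%) with no filter, where 2.51% were. It was 9 (3%) without those 2 libraries, where 2.4% of tested genes were called. When 1 overexpression or sponge library was left out it was 0 to 1, where 0.0254% to 0.235% were. For the mutated control against scramble (0) it was 30 (10%) with the compared groups alone, where 3.79% of tested genes were called. It was 7 (2.33%) with no filter, where 0.5% were, and 11 (3.67%) without those 2 libraries, where 1.73% were. For the difference of the effects (0) it was 22 (7.33%) with no filter, where 1.11% of tested genes were called. It was 14 (4.67%) without those 2 libraries, where 1.73% were. The cause was not tested.

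Some uncalled log2 fold changes against the mutated control changed sign. The length offset takes out the fitted trend of level on length, so upward shifts of long genes follow from how it is built. With the length offset they were 0.53 for Nopchap1, 0.085 for Kcnq1ot1, 0.048 for Dst, 0.23 for Syne1, 0.12 for Ankrd17, 0.28 for Ank2, 0.098 for Iqgap1, 0.084 for Dync1h1, 0.14 for Mbnl1, 0.038 for Lrp1, 0.021 for Ahnak, 0.13 for Ptprc, 0.049 for Fubp1, 0.10 for Tns1, 0.14 for Hdac4, 0.091 for Slc38a1, 0.093 for Slc38a9 and 0.074 for Itpr2. Without overexpression replicate 1 and sponge replicate 3 they were 0.048 for Nopchap1, 0.15 for Syne1, 0.013 for Ankrd17, 0.095 for Ank2, 0.068 for Iqgap1, 0.10 for Dync1h1, 0.055 for Mbnl1, 0.064 for Lrp1, 0.075 for Ahnak, 0.026 for Ptprc, 0.049 for Tns1, 0.024 for Hdac4 and 0.062 for Itpr2. Nopchap1 stood at 0.0088 with intact columns alone, 0.0074 with no filter and 0.0038 with the block by description number, where Ank2 stood at 0.016. When 1 library was left out, the ranges were −0.042 to 0.043 for Nopchap1, −0.16 to 0.15 for Syne1, −0.25 to 0.0093 for Ankrd17, −0.14 to 0.088 for Ank2, −0.13 to 0.064 for Iqgap1, −0.16 to 0.10 for Dync1h1, −0.11 to 0.052 for Mbnl1, −0.21 to 0.060 for Lrp1, −0.33 to 0.071 for Ahnak, −0.14 to 0.022 for Ptprc, −0.15 to 0.047 for Tns1, −0.084 to 0.018 for Hdac4 and −0.14 to 0.058 for Itpr2. With 2 control libraries in a group, a fit that leaves 1 out assumes that the lone library varies like the others.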

Other observations

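Vwf, which codes for von Willebrand factor, known from endothelial cells and platelets, is 1 of the 300 long genes and was chosen here after its values were seen. It had 95.6, 118 and 127 CPM with overexpression, 148 and 128 CPM in the mutated control, 158, 163 and 142 CPM with the sponge, and 137 and 161 CPM with scramble. All overexpression libraries lay below all others, by less than 1 CPM at the closest. The log2 fold change of Vwf was −0.28 (SE 0.12, edgeR adjusted p = 0.257) against the mutated control and −0.39 (SE 0.12, adjusted p = 0.252) against scramble. Among endothelial markers, Kdr had 17.7 to 27.4 CPM, Eng 6.76 to 9.64, Stab2 1.59 to 2.67 and Cdh5 1.04 to 1.63 CPM over the libraries. Pecam1 had 0.156 to 0.572 CPM, Lyve1 and Tek at most 0.21 and 0.084 CPM, and Clec4g was at 0. Their part in the level of Vwf was not tested.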
